A study of Homo sapiens and Mus musculus with 13 samples.

Results

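The 24 genes described here encode the route that carries glucose from outside the cell to lactate: 2 glucose transporters, the enzymes of each step from glucose to pyruvate, 2 enzymes that set the activity of phosphofructokinase, the lactate dehydrogenases and lactate transporters, and a kinase that holds pyruvate back from the mitochondrion. They were taken by their names, with no threshold on a measured value, and all 24 were found among the 24523 gene symbols of the cell line table and all 24 (with Gpi1 as the mouse gene for GPI) among the 55228 symbols of the tumor table. Of them 23 passed, in each of the tables, the filter on low values, a mean of at least 0.5 FPKM. FPKM counts the fragments mapped to a gene, scaled by length and by the mapped fragments of the library. SLC16A1 stayed below it in the cell lines, at 0.0860 to 0.333 FPKM, and Slc2a3 in the tumors, at 0.176 to 0.261 FPKM. FPKM is corrected for length, so levels of different genes can be set side by side only roughly. In the tumors that length was of all annotated exons of a gene merged, so the order of genes by FPKM and by reads can differ.

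Glycolysis splits 1 glucose into 2 pyruvate and yields ATP without oxygen. Glucose enters through GLUT proteins (SLC2A1, SLC2A3), is trapped by hexokinase, and is committed by phosphofructokinase-1, whose activator fructose-2,6-bisphosphate is made by the PFKFB enzymes. Many tumor cells run the pathway fast even when oxygen is present and export the lactate through SLC16A1 and SLC16A3. Several of these genes (SLC2A1, HK2, PFKFB3, LDHA, PDK1) are textbook targets of HIF-1, the transcription factor stabilised when oxygen is low, and of MYC.

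RNA was measured in 7 lines of MDA-MB-231, an established human triple-negative breast cancer cell line, and in 6 mouse mammary tumors. The cell lines carried CRISPR guides delivered by lentivirus and were selected with puromycin. They comprised 1 Control line whose guide targets GFP, 2 TRIM11-KD lines (TRIM11 guide 1 and guide 2), 2 KDM5C-KD lines (KDM5C guide 1 and guide 2), and 2 DKD lines that carried both kinds of guide (DKD1 with TRIM11 guide 1, DKD2 with TRIM11 guide 2, both with KDM5C guide 2). TRIM11 is an E3 ubiquitin ligase and KDM5C is a demethylase of histone H3 lysine 4. The tumors came from 3-month-old female MMTV-PyVT mice on a hybrid C57BL/6N and FVB/N background, in which the MMTV promoter drives the polyoma middle T oncogene in the mammary gland. Of these tumors, 3 were Trim11+/+ and 3 were Trim11+/-, with exons 2 to 6 of 1 Trim11 allele deleted by CRISPR/Cas9. The question put to the cell lines was how lowering TRIM11, KDM5C or both changes transcription. In the tumors it was how the loss of 1 Trim11 allele does so. Each line gave 1 library, so the spread within a group of lines also holds the difference between guides, and the labels do not say whether the tumors came from separate litters.

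TRIM11 mRNA was 12.6 FPKM in Control, 13.4 and 10.6 in the TRIM11-KD lines and 16.1 and 9.38 in the DKD lines, so the libraries labelled TRIM11-KD1 and DKD1 did not show less of it than Control. KDM5C mRNA was 30.3 in Control, 28.4 to 29.8 in the TRIM11-KD lines and 18.8 to 22.7 in the 4 lines with a KDM5C guide. In the tumors Trim11 stood at 37.1 ± 1.84 (SD, n = 3) in Trim11+/+ and 23.2 ± 0.660 (SD, n = 3) in Trim11+/-. Of 6 markers known as high in MDA-MB-231 all were at 41.7 FPKM or more in every line, VIM at 1038 or more. Of 6 known as low, PGR and KRT5 were listed at 0, ESR1 was at 0.0234 or less and CDH1 at 1.98 or less, while ERBB2 stood at 17.8 to 23.7 and EPCAM at 4.03 in Control and 4.999 to 12.3 in the knockdown lines. Krt8 was at 335 or more in every tumor. The cell line values give no read depth; the tumor libraries held between 8793199 and 11117125 reads by the read numbers recovered from their FPKM.

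In the cell lines the pathway was abundantly expressed, and most of it varied little from line to line. The 24 genes together took 1.49% of all FPKM in Control, 1.32% and 1.503% in the TRIM11-KD lines, 1.42% and 1.59% in the KDM5C-KD lines and 1.42% and 1.75% in the DKD lines. GAPDH, the dehydrogenase in the middle of the pathway, led with a mean of 1722 FPKM, followed by the enolase ENO1 at 1530, the pyruvate kinase PKM at 717, ALDOA at 656 and LDHA at 627. At the other end stood PFKFB4 at 6.04, PDK1 at 6.17, ALDOC at 7.91 and SLC2A3 at 8.44. The highest of the 7 lines exceeded the lowest by a median of 1.38-fold over the 23 genes (1.57-fold over all 12636 genes tested), and 13 of the 23 stayed under 1.5-fold, against 42.2% of all genes. PFKFB3 (2.69-fold), SLC2A3 (2.34-fold) and PFKP (2.13-fold) were the only 3 that reached 2-fold. The 12636 genes include those just above the filter of 0.5 FPKM, and genes of matched level were not compared.

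**Figure D1:**
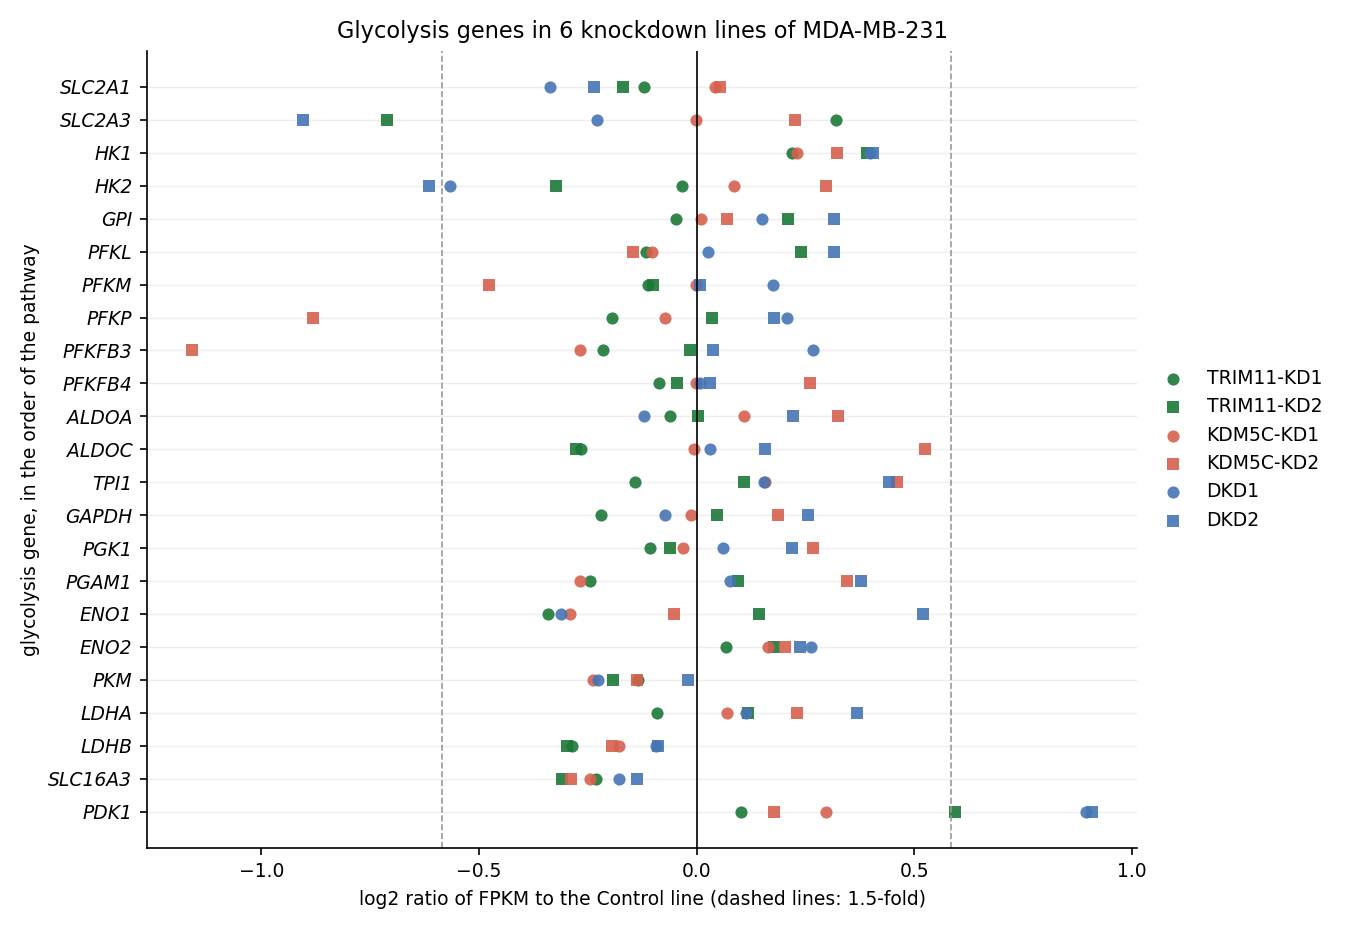
Log2 ratio of each glycolysis gene to the Control line in the 6 knockdown lines, with genes grouped by role. Most points lie near 0, while PDK1 in the DKD lines (mean 0.90) and PFKP and PFKFB3 in KDM5C-KD2 (ratios 0.543 and 0.448) lie far from it.

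Against the single Control line no p-value can be had, and a gene was called only where both lines of a knockdown differed from Control by at least 1.5-fold in the same direction. By this rule 0 of the 23 genes were called in the TRIM11-KD lines, 0 in the KDM5C-KD lines and 1, PDK1, in the DKD lines. Over all genes tested the rule called 5.83%, 9.2% and 10.6%, and in the DKD lines 5.71% were called higher. Lines compared with the same Control share that library. Members above Control numbered 4 in TRIM11-KD1, 12 in TRIM11-KD2, 9 in KDM5C-KD1, 15 in KDM5C-KD2, 14 in DKD1 and 17 in DKD2, beside 47.3% to 50% of all genes per line. HK1, ENO2 and PDK1 were above Control in all 6 knockdown lines (13.6% of all genes were), and PKM, LDHB and SLC16A3 were below it in all 6 (16.1% of all genes were). ENO2 is the enolase best known from neurons, and HK1 is the hexokinase of most tissues.

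PDK1 phosphorylates pyruvate dehydrogenase and so turns pyruvate away from the mitochondrion. It was at 4.46 FPKM in Control, 4.78 in TRIM11-KD1, 6.74 in TRIM11-KD2, 5.48 in KDM5C-KD1, 5.05 in KDM5C-KD2, 8.29 in DKD1 and 8.37 in DKD2. Both DKD lines were above every other line, at 1.86 and 1.88 times Control. The gene lies at chr2:173420101-173473397 (hg19, plus strand). Around it, 34 genes within 5 Mb with a mean of at least 2 FPKM had median log2 ratios to Control of 0.36 and 0.32 in the DKD lines, where PDK1 itself had 0.90 and 0.91.

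HK2 is the inducible hexokinase of muscle, fat and many tumors. Its level was 25.7 FPKM in Control, 25.1 and 20.5 in the TRIM11-KD lines, 27.2 and 31.6 in the KDM5C-KD lines, and 17.3 and 16.8 in the DKD lines. The 4 lines with a TRIM11 guide were all below the 3 lines without one, and the DKD lines were the lowest of all, at 0.675 and 0.653 of Control, on either side of the 1.5-fold limit. HK2 lies at chr2:75061254-75120486 (hg19, plus strand), on the same chromosome as PDK1 but far from it. The 50 expressed genes within 5 Mb had median log2 ratios of -0.28 and 0.04 in the DKD lines, where HK2 had -0.57 and -0.62.

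The 250 bases before the annotated starts of HK2 and PDK1 are shown because these 2 genes lay furthest from Control in the mean of the DKD lines, on opposite sides of it. They come from RefSeq on GRCh38.p14, both genes on the plus strand. Capitals mark ACGTG and GCGTG on either strand, the core letters of the element bound by HIF-1. ACGTG is also part of CACGTG, the element bound by MYC and related factors, which reads as ACGTG on both strands.
HK2, chr2:74833877-74834126: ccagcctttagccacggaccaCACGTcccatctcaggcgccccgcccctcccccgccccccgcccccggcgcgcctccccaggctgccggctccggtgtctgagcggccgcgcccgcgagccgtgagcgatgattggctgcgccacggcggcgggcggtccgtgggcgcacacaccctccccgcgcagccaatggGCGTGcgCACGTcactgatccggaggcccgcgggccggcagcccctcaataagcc
HK2, chr2:74834920-74835169: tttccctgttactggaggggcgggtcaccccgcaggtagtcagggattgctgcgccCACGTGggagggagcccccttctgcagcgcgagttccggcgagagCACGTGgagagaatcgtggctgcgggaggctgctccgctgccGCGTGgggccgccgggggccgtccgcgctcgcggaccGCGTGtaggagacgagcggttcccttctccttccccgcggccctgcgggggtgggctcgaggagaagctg
PDK1, chr2:172555840-172556089: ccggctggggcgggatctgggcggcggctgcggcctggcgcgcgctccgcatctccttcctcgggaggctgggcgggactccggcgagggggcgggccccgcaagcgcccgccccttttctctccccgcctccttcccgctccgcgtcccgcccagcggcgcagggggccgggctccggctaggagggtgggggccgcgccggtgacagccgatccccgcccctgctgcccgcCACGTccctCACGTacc

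The first HK2 window held 2 ACGTG and 1 GCGTG, and the second held 4 ACGTG, which come from 2 CACGTG, and 2 GCGTG. The PDK1 window held 2 ACGTG and no GCGTG, and a second annotated PDK1 start at chr2:172555123-172555372 held neither. RefSeq start sites were matched for 22 of the 24 genes, 48 windows in all. ACGTG was present in 35.4% of these 48 windows and in 18.5% of the 35116 windows of all genes, GCGTG in 29.2% and 32.2%, and CACGTG in 12.5% and 6.34%. A match describes letters only, and windows of 1 gene can overlap.

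**Figure D2:**
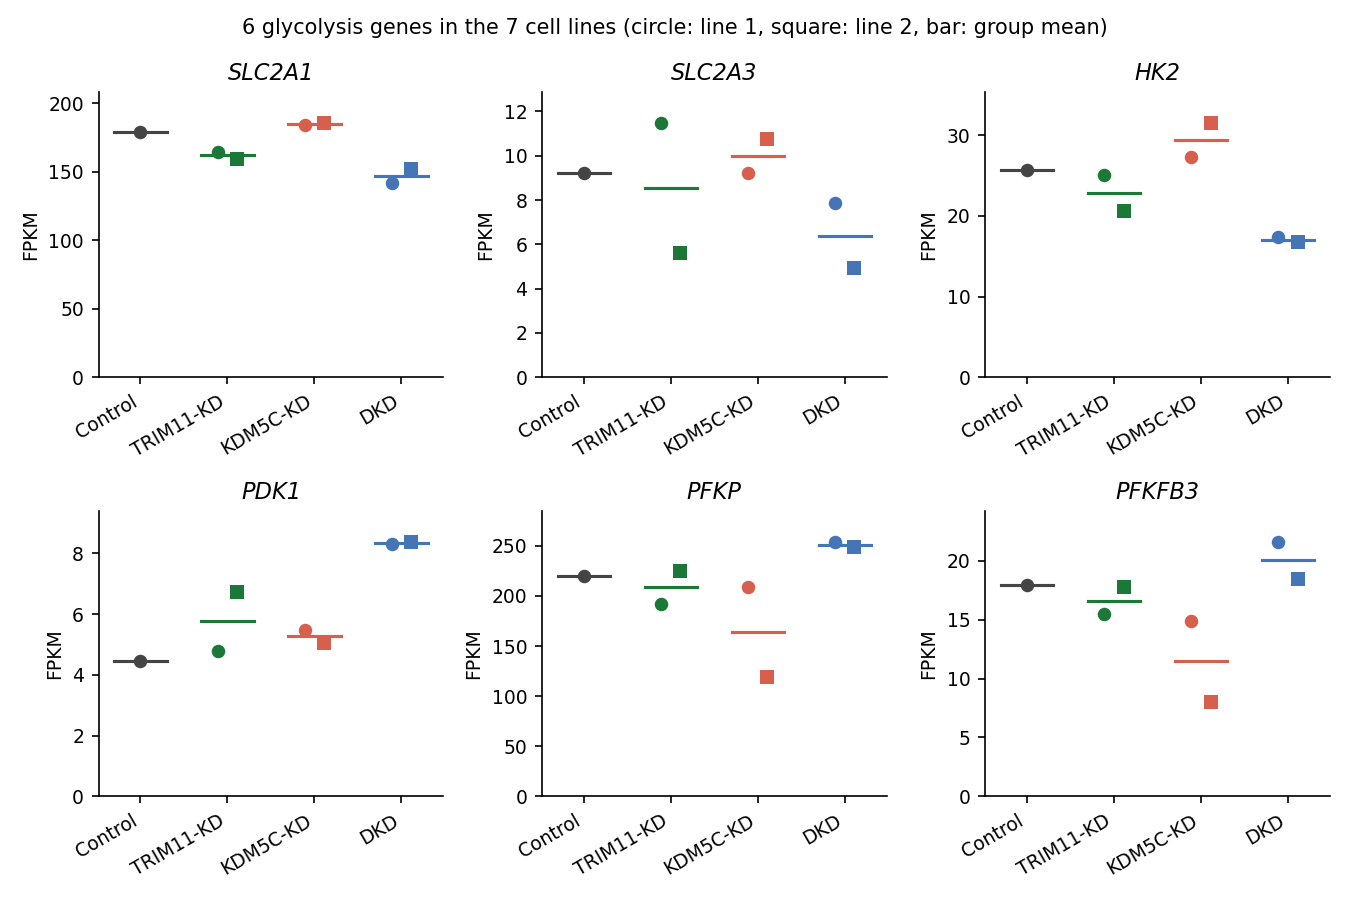
FPKM of SLC2A1, SLC2A3, HK2, PDK1, PFKP and PFKFB3 by group in the 7 cell lines (circle line 1, square line 2, bar the group mean). HK2 is lowest and PDK1 highest in the DKD lines (17.3 and 16.8, 8.29 and 8.37), and PFKP and PFKFB3 are lowest in KDM5C-KD2 (119 and 8.03).

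The KDM5C-KD and DKD lines were compared with limma on log2(FPKM + 1), which asks what the TRIM11 guide adds to the KDM5C guide. The contrast also holds a difference of KDM5C guides, since KDM5C-KD1 carries guide 1 and the other 3 lines guide 2, and the line matched in that guide is KDM5C-KD2. A gene was called at a 1.5-fold difference of the group means and an unadjusted p under 0.05, the kind of rule used in the study. By it 4 of 23 glycolysis genes differed, 1 higher and 3 lower in KDM5C-KD, while 6.74% of all genes did, 3.41% higher and 3.33% lower. After Benjamini-Hochberg adjustment over all genes 0 of 12636 passed 0.05, and 5 members and 1473 genes (11.7%) had an unadjusted p under 0.05. The group ranges did not overlap for 3 members higher and 10 lower in KDM5C-KD, and for 43.3% of all genes, 22% higher and 21.3% lower. The median log2 difference over the 23 members was -0.09 and over all genes -0.00.

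HK2 was 29.4 ± 3.06 FPKM in the KDM5C-KD lines and 17.05 ± 0.396 in the DKD lines (SD, n = 2 each). The log2 difference was 0.75 (SE 0.14, limma, unadjusted p = 0.00194, adjusted p = 0.379). PDK1 went the other way, with 5.26 ± 0.306 in KDM5C-KD and 8.33 ± 0.0576 in DKD, a log2 difference of -0.58 (SE 0.18, limma, unadjusted p = 0.0172, adjusted p = 0.388). Both differences were larger than the spread between lines of a group, and neither passed the adjustment over all genes. The glucose transporter SLC2A1 was 185 and 186 FPKM in KDM5C-KD and 142 and 152 in DKD, a ratio of 1.26 below the 1.5-fold limit, with an adjusted p of 0.388 in limma. SLC2A3, the high-affinity transporter, was 9.20 and 10.8 against 7.86 and 4.91, a 1.56-fold difference that did not pass the test (limma, adjusted p = 0.527).

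PFKP, the platelet-type subunit of phosphofructokinase-1, was the main subunit in these cells, at 61.8% to 73.9% of the summed PFKL, PFKM and PFKP. It stood at 220 FPKM in Control, 192 and 225 in the TRIM11-KD lines, 209 and 119 in the KDM5C-KD lines and 254 and 249 in the DKD lines. The KDM5C-KD lines had a mean of 164 ± 63.5 and the DKD lines 251 ± 3.90 (SD, n = 2 each), a log2 difference of -0.67 (SE 0.26, limma, adjusted p = 0.414). PFKFB3, which makes the activator of phosphofructokinase-1, was 17.9 in Control, 15.5 and 17.7 in TRIM11-KD, 14.9 and 8.03 in KDM5C-KD and 21.6 and 18.4 in DKD. Its log2 difference was -0.81 (SE 0.27, limma, adjusted p = 0.388). For both genes KDM5C-KD1 was nearer to Control, at 0.951 and 0.831 of it, and a single library, KDM5C-KD2, was low, at 0.543 and 0.448. Without KDM5C-KD2 the differences were -0.26 for PFKP and -0.40 for PFKFB3, and neither was called. PDK1 was at -0.53 without it and was no longer called, nor was it called without DKD1 (-0.58) or DKD2 (-0.57). HK2 was called whichever line was left out.

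PFKP (chr10:3108525-3179910) and PFKFB3 (chr10:6186897-6296607, both hg19, plus strand) lie close together near the start of chromosome 10, and their neighbours were low in the same library. In KDM5C-KD2 all 21 expressed genes within 5 Mb of PFKP were below Control, with a median log2 ratio of -0.80, and in the other 5 lines this median lay between -0.13 and 0.14. Of the 15 neighbours of PFKFB3, 14 were below Control, with a median of -0.71. Before position 38 Mb of the chromosome 84 of 87 genes (96.6%) were below Control in KDM5C-KD2, with a median log2 ratio of -0.71, or 0.612 of Control. After 43 Mb the median of 286 genes was 0.19 and 81 were below, and over 9189 genes of the other chromosomes the median was -0.00. The 5 other knockdown lines had medians of -0.12 to 0.19 over the 87 genes, both DKD lines with the same KDM5C guide included. HK1 and PGAM1, the other 2 members on chromosome 10, lie after 43 Mb and were at 1.25 and 1.27 times Control in KDM5C-KD2. The part of the neighbourhood in the low PFKP and PFKFB3 was not tested.

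**Figure D3:**
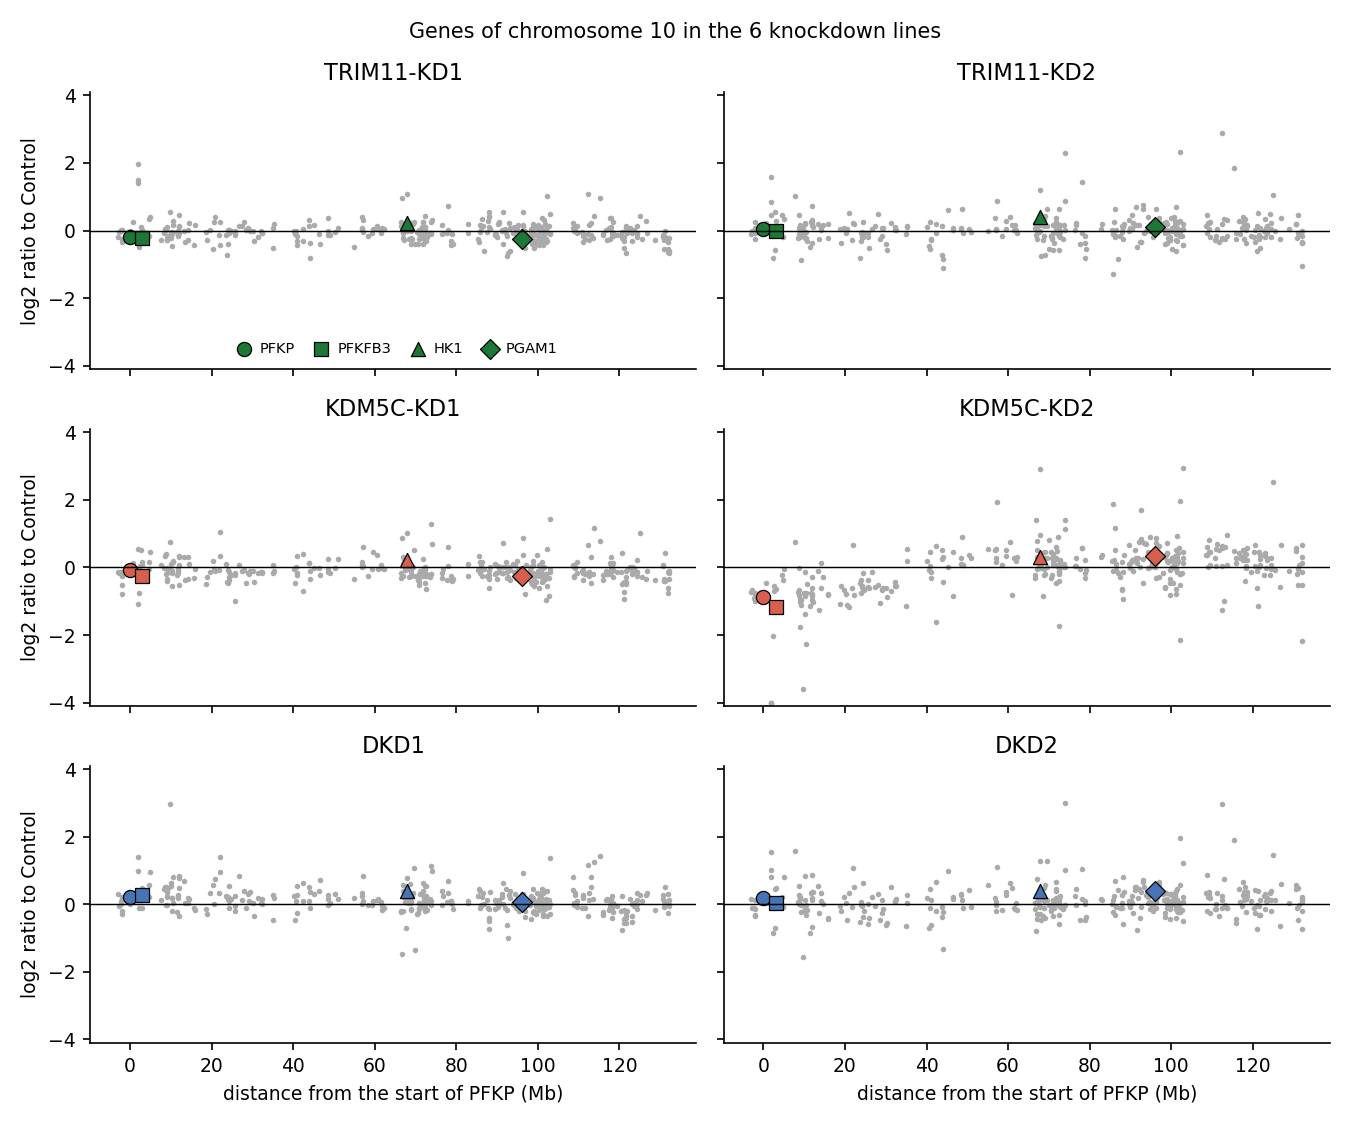
Log2 ratio to Control of expressed genes along chromosome 10, with a panel for each knockdown line. The axis gives megabases from the start of PFKP, and values below -4 are drawn at -4. PFKP (circle) and PFKFB3 (square) lie before position 38 Mb of the chromosome. In KDM5C-KD2, 84 of 87 genes before that position are below 0 with a median of -0.71. HK1 (triangle) and PGAM1 (diamond) lie above 0 in that line.

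The remaining steps of the pathway moved less. PFKL, the liver-type subunit, ranged from 57.9 to 79.9 FPKM and PFKM, the muscle-type subunit, from 15.7 to 24.6, lowest in KDM5C-KD2 at 0.718 of Control. The aldolase ALDOA ranged from 573 to 779, and the triose phosphate isomerase TPI1 from 314 to 476. PGK1, which makes the first ATP of the route, ranged from 252 to 327, and PGAM1 from 256 to 401. ENO1 was 1549 in Control, 1223 in TRIM11-KD1, 1710 in TRIM11-KD2, 1266 and 1493 in KDM5C-KD, 1249 in DKD1 and 2220 in DKD2. The DKD lines thus enclosed almost the whole range of ENO1, a spread within the group as large as any difference between groups. GPI ranged from 87.9 to 113, and PKM only from 666 to 786.

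At the lactate end, LDHA ranged from 541 to 744 FPKM and LDHB, the subunit common in oxidative tissues, from 278 to 342. LDHB made up 37.3% of both subunits in Control and 30.2% to 34.1% in the 6 knockdown lines. Of the lactate transporters SLC16A3 (MCT4) was at 186 to 230 and made up 99.8% or more of summed SLC16A1 and SLC16A3 in every line, with SLC16A1 (MCT1) at most 0.333. SLC16A7 (MCT2), no member, was at 1.35 to 2.85. SLC16A1 was 0.0860 in Control and 0.250 and 0.333 in KDM5C-KD, values below the filter from which no change is read.

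The isozymes also differed in share. HK2 made up 27.6% of summed HK1 and HK2 in Control, 24.2% and 18.8% in TRIM11-KD, 25.6% and 27.2% in KDM5C-KD, and 16.3% and 15.8% in DKD. The DKD lines had the lowest shares, and HK1 was the larger part in every line. ALDOC was 1.004% to 1.39% of both aldolases, ENO2 was 1.99% to 3.54% of both enolases, and SLC2A3 was 3.12% to 6.53% of both glucose transporters.

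The KDM5C-KD and TRIM11-KD lines were compared in the same limma fit. None of the 23 members was called, 0 against 5.37% of all genes. The adjusted threshold was passed by 0 genes of 12636, and 2 members and 9.82% of all genes had an unadjusted p under 0.05. Ranges did not overlap for 8 members higher and 1 lower in KDM5C-KD, and for 43.5% of all genes, 22.5% higher and 21% lower. ALDOC was 9.32 ± 2.39 against 6.35 ± 0.0356 FPKM (SD, n = 2 each), 1.47-fold higher in KDM5C-KD with an adjusted p of 0.505 in limma. HK2 was 1.29-fold higher (29.4 ± 3.06 against 22.8 ± 3.21, SD, n = 2 each, limma adjusted p = 0.507). Neither reached 1.5-fold. Without KDM5C-KD1 the log2 differences were 0.71 for ALDOC, -0.96 for PFKFB3 and -0.80 for PFKP. The only KDM5C-KD line left is then KDM5C-KD2, where PFKP, PFKFB3 and their neighbours on chromosome 10 were low.

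For DKD against TRIM11-KD, which asks what the KDM5C guide adds to the TRIM11 guide, again 0 members were called, against 3.29% of all genes. Of 12636 genes 0 passed the adjusted threshold, and 2 members and 7.03% of all genes had an unadjusted p under 0.05. PDK1 was 1.45-fold higher in DKD (8.33 ± 0.0576 against 5.76 ± 1.38 FPKM, SD, n = 2 each), with a log2 difference of 0.48 (SE 0.18, limma, adjusted p = 0.704). HK2 was lower in DKD at 0.747 of TRIM11-KD, a log2 difference of -0.39 (SE 0.14, limma, adjusted p = 0.704). Of the 23 members 20 had a value above 0 and the median log2 difference was 0.18, against 0.01 over all genes, and under median-ratio scaling the count was 20 again and the median 0.17. Ranges did not overlap for 12 members higher and 2 lower in DKD, and for 41% of all genes, 21.7% higher and 19.3% lower. Without TRIM11-KD2, which leaves a single TRIM11-KD line, the log2 differences were 0.69 for PDK1 and -0.79 for SLC2A3. The 3 comparisons between knockdown groups share their libraries, so a line that is high or low enters 2 of them.

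A limma fit over all 7 lines held a term for each guide. For the TRIM11 guide 0 of 23 members were called (3.02% of all genes), 0 of 12636 genes passed the adjusted threshold, and 3 members and 10.7% of all genes had an unadjusted p under 0.05. HK2 averaged 19.9 ± 3.82 FPKM (SD, n = 4) with a TRIM11 guide and 28.2 ± 3.05 (SD, n = 3) without, a log2 difference of -0.52 (SE 0.15, limma, adjusted p = 0.448). SLC2A1 was 165, 159, 142 and 152 with a TRIM11 guide and 179, 185 and 186 without, a log2 difference of -0.26 (SE 0.085, limma, adjusted p = 0.448). These were the members whose ranges did not overlap, both lower with the guide, while 8.75% of all genes did not overlap in either direction and 4.55% in this one. The 81 expressed genes within 5 Mb of SLC2A1 had median log2 ratios to Control of -0.15 and 0.02 in TRIM11-KD. There SLC2A1 had -0.12 and -0.17. In DKD the medians were -0.23 and 0.08, where SLC2A1 had -0.34 and -0.23. PDK1 had a log2 difference of 0.46 (SE 0.14, limma, adjusted p = 0.448). Without the Control line the TRIM11 term is the KDM5C-KD against DKD difference given above, with the sign turned. Its calls of HK2 (-0.75), PFKFB3 (0.81) and PFKP (0.67) are therefore no further result. HK2 was also called without TRIM11-KD1 (-0.60), as was SLC2A3 (-0.61).

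For the KDM5C guide 0 of 23 members were called (2.13% of all genes), 1 gene, no member, passed the adjusted threshold (0.00791% of all), and 2 members and 11.1% of all genes had an unadjusted p under 0.05. TPI1 was 386 to 476 FPKM in the 4 lines with the guide and 314 to 373 in the 3 lines without, the only member whose ranges did not overlap (10.7% of all genes, 5.64% higher). Its log2 difference was 0.31 (SE 0.13, limma, adjusted p = 0.435), and that of PDK1 was 0.37 (SE 0.14, limma, adjusted p = 0.424). Where an interaction of both guides was added, 0 of 23 members had an adjusted p under 0.05 in limma, the lowest being 0.879. An unadjusted p under 0.05 was had by 1 member, HK2, with an interaction of -0.58 on the log2 scale (SE 0.23). The share of all genes with such a p was not counted, so no result is read from this count. The interaction also rests on the single Control line.

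In the tumors the order of levels was different. Ldha led with a mean of 342 FPKM, followed by Aldoa at 321, Pkm at 160, Tpi1 at 138 and Pgk1 at 114. The 24 genes took 0.403%, 0.468% and 0.515% of all FPKM in the Trim11+/+ tumors and 0.592%, 0.628% and 0.448% in the Trim11+/- tumors. Gapdh had a mean of only 8.95 FPKM, from 6.96 to 11.2. The tumor table lists 171 near copies of its coding sequence as separate pseudogenes, with at least 90% identity over at least 150 bases, and these summed to 129 to 271 FPKM, so reads of Gapdh may be split among them and its level is uncertain. The cell line table lists few such pseudogenes (0 of 14 for GAPDH, 0 of 6 for LDHA, 1 of 8 for PGAM1), so a split of reads there was not measured. Eno1 has 5 such copies, which summed to 5.94 to 102 FPKM beside 93.7 to 150 for Eno1 itself, so Eno1 is uncertain too. In bulk tumors fewer cells of a type and less RNA per cell cannot be told apart.

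By the rule of 1.5-fold and an unadjusted p under 0.05 in limma, 0 of 23 members differed between Trim11+/- and Trim11+/+ tumors, against 3.61% of all 17328 genes. After adjustment 1 gene in all (0.00577%) passed 0.05, and it was no member; 0 members and 6.94% of all genes had an unadjusted p under 0.05. The median log2 difference was -0.03 over the members and -0.00 over all genes, with 11 members above 0 and 12 below. The ranges of the genotypes did not overlap for 1 member of 23, Pfkfb3, and for 13.4% of all genes, 6.6% being higher in Trim11+/-.

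Aldoa, the muscle-type aldolase found in most tissues, was the member with the largest difference. It was 146, 251 and 273 FPKM in the Trim11+/+ tumors and 494, 551 and 213 in the Trim11+/- tumors. Of the Trim11+/- tumors 2 were above every Trim11+/+ tumor and the last was inside their range. The means were 420 ± 181 and 223 ± 68.0 (SD, n = 3 each), 1.88-fold apart, with a log2 difference of 0.84 (SE 0.41, limma, adjusted p = 0.728) and an exact two-sided permutation p of 0.3, where 3 against 3 cannot go below 0.1. The values rest on 4633 to 15993 reads per tumor, so counting error is small beside this spread. Without Trim11+/- tumor 3 the log2 difference was 1.27 (limma, adjusted p = 0.433) and Aldoa was called, as was Ldha with 0.66.

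Ldha followed the same order of tumors, with 206, 315 and 363 FPKM in Trim11+/+ and 430, 476 and 259 in Trim11+/-. The ratio of the means was 1.32 and the log2 difference 0.39 (limma, adjusted p = 0.824). Slc2a1 was 15.4, 24.3 and 31.1 in Trim11+/+ and 28.5, 27.2 and 14.2 in Trim11+/-, and Pfkp was 4.98, 7.79 and 8.09 against 10.9, 8.87 and 4.78. In these 4 genes and in Eno2 the lowest pair of tumors was Trim11+/+ tumor 1 and Trim11+/- tumor 3, a pair picked out after these values were seen. The same pair was the lowest for 11.5% of all genes tested. Tpi1 and Eno1 had their highest values in this pair, as did 15.5% of all genes. The order of tumors for Eno1 is uncertain because of its near copies. These summed to 102 FPKM in Trim11+/+ tumor 1, 5.94 in Trim11+/- tumor 3 and 37.1 to 93.3 in the other tumors.

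**Figure D4:**
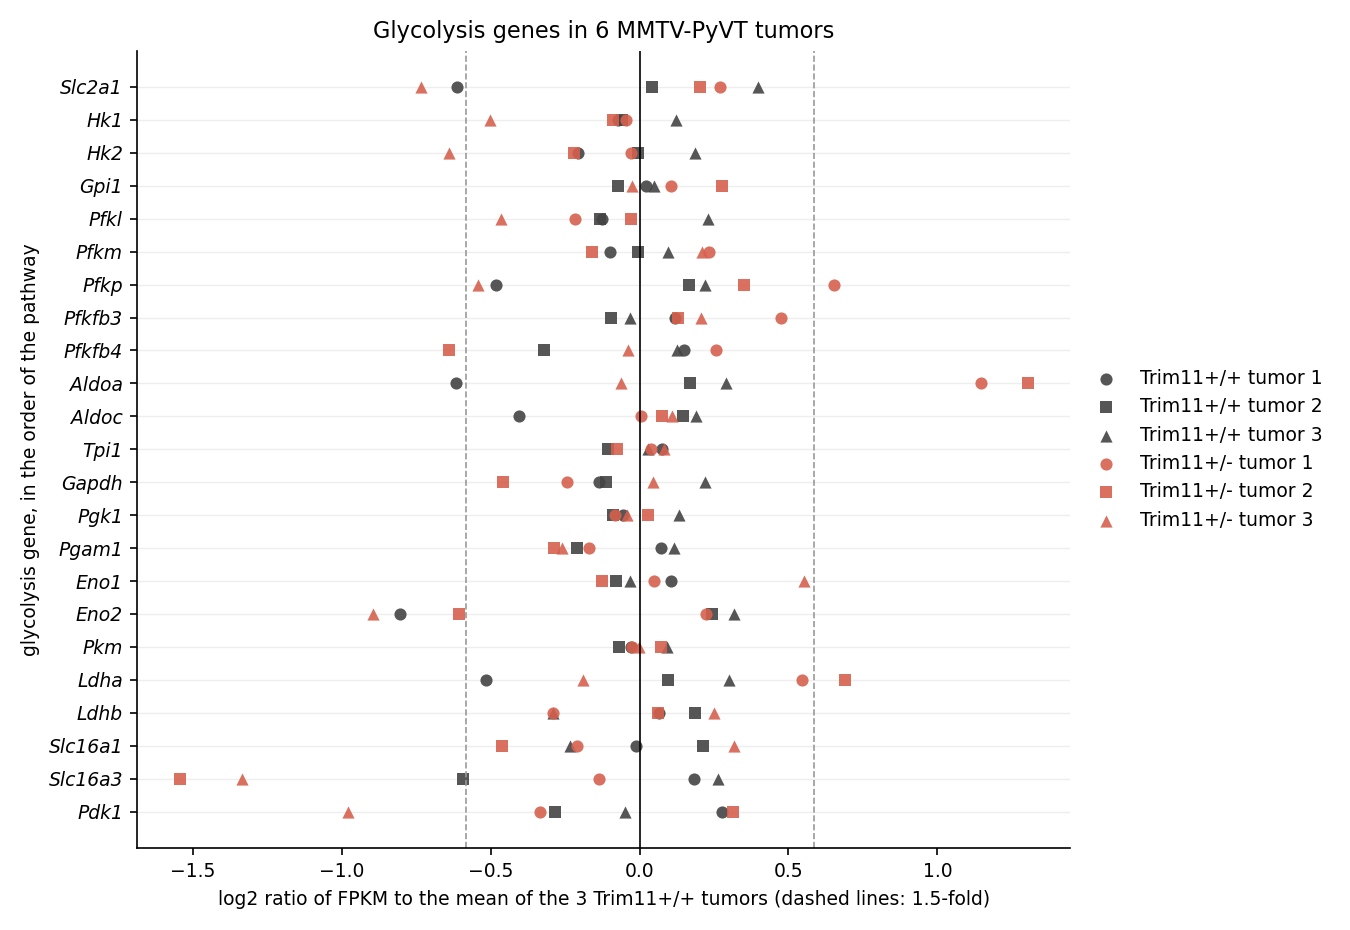
Log2 ratio of each glycolysis gene to the mean of the 3 Trim11+/+ tumors, in all 6 tumors, with dashed lines at 1.5-fold. Aldoa reaches 494 and 551 FPKM in Trim11+/- tumors 1 and 2 but 213 in tumor 3, and most other genes overlap between genotypes.

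The makeup of the tumors differed in the same pair. All 8 adipocyte markers had their lowest pair of values there (11.5% of all genes did). Their summed levels were 57.8, 422 and 93.9 FPKM in Trim11+/+ tumors and 345, 187 and 28.9 in Trim11+/- tumors. Of 17 proliferation genes 16 had their highest pair there (15.5% of all genes did). Their sums were 479, 300 and 317 against 306, 284 and 409. The 12 skeletal muscle markers summed to 48.6, 198 and 342 against 440, 25.6 and 20.5, and Myh4 was listed at 0 in Trim11+/- tumors 2 and 3. Muscle markers were highest in Trim11+/- tumor 1, where Aldoa was 494, and low in Trim11+/- tumor 2, where Aldoa was 551. Markers of basal epithelium summed to 341, 141 and 203 in Trim11+/+ and to 99.1, 66.4 and 95.0 in Trim11+/-, and 5 of 7 were called lower, against 1.87% of all genes. The part of muscle, adipocyte, basal and cycling cells in the values of Aldoa and Ldha was not tested.

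**Figure D5:**
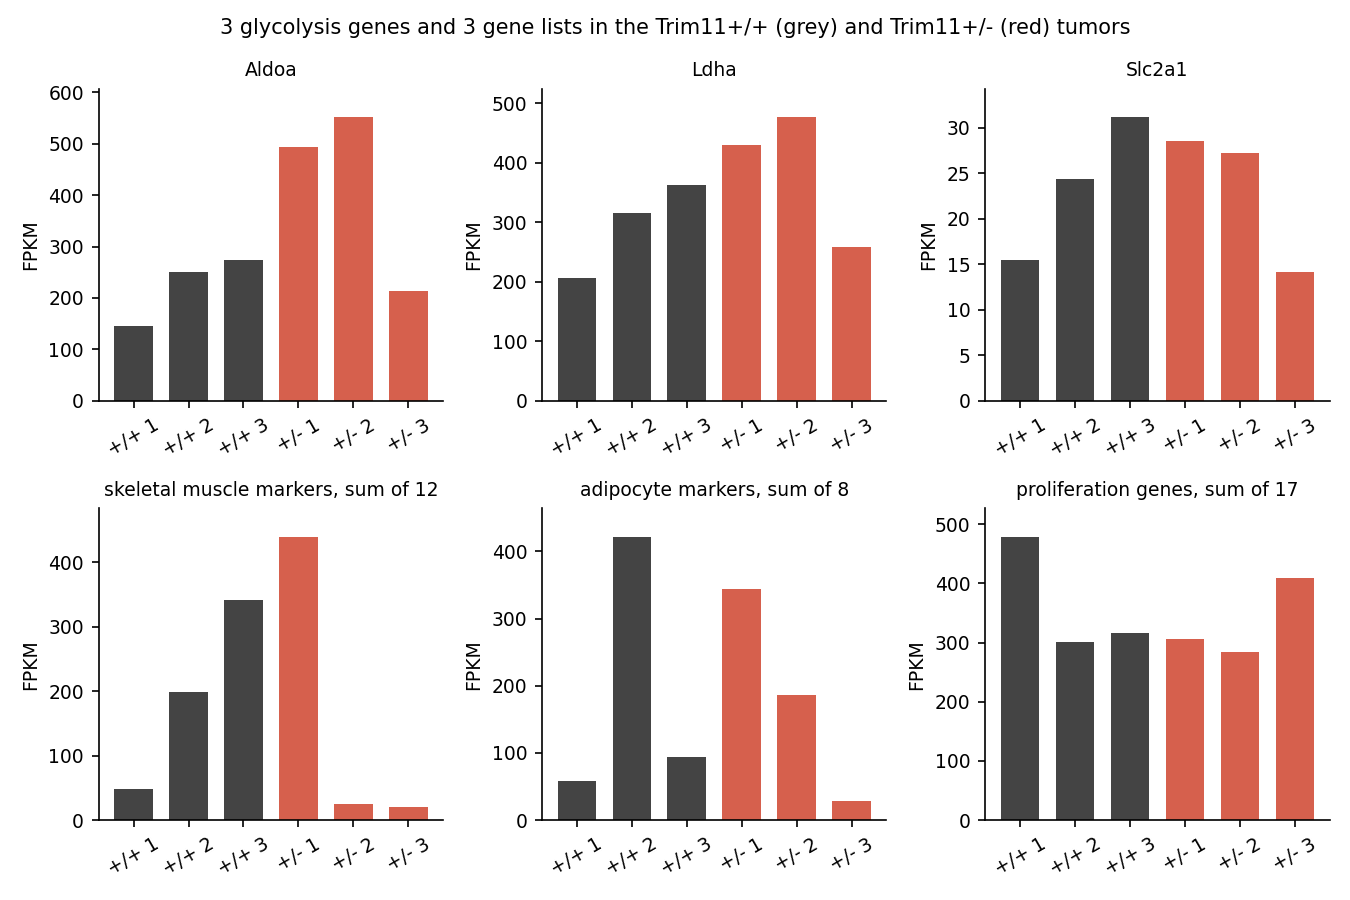
FPKM per tumor of Aldoa, Ldha and Slc2a1 and of the summed markers of skeletal muscle (12 genes), adipocytes (8) and proliferation (17). Trim11+/+ tumor 1 and Trim11+/- tumor 3 have the lowest Aldoa, Ldha, Slc2a1 and adipocyte values and the highest proliferation sums, 479 and 409.

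Pfkfb3 was 5.74, 4.94 and 5.17 FPKM in Trim11+/+ and 7.34, 5.78 and 6.09 in Trim11+/-, so that every Trim11+/- tumor was above every Trim11+/+ tumor, though by a narrow gap. Its means of 6.40 ± 0.827 and 5.28 ± 0.409 (SD, n = 3 each) were 1.21-fold apart, with the smallest exact permutation p this design allows, 0.1. Slc16a3, the more abundant lactate transporter of the cell lines, was low here at 1.20, 0.703 and 1.27 against 0.964, 0.364 and 0.420, which rest on 17 to 70 reads (limma, adjusted p = 0.756). Slc16a1 was higher, at 6.89 to 11.8 FPKM. Pdk1 was 10.8, 7.30 and 8.59 against 7.04, 11.04 and 4.51, and Hk2 was 3.40, 3.92 and 4.47 against 3.86, 3.37 and 2.53, both with overlapping genotypes.

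Steady members were Pkm at 152 to 170 FPKM, Pgk1 at 109 to 127 and Tpi1 at 128 to 145, each with at most 1.16-fold between the highest and the lowest of 6 tumors. Over the 23 members the highest tumor exceeded the lowest by a median of 1.60-fold, close to the 1.61-fold of all genes, and 7 members reached 2-fold. The isozyme shares overlapped between genotypes for Hk2, Pfkp, Eno2, Ldhb, Slc2a3 and Slc16a3, with exact permutation p between 0.2 and 0.8. Near copies of Eno1 and Ldhb leave the shares of Eno2 and Ldhb uncertain. The Ldhb copy was at 0.567 FPKM in Trim11+/- tumor 2 and at 10.4 to 22.5 in the other tumors. The share of Aldoc among both aldolases was 33.2%, 29.7% and 28.6% in Trim11+/+ and 16.3%, 15.5% and 32.7% in Trim11+/-. That share fell below the Trim11+/+ range in 2 of 3 tumors (means 30.5 ± 2.42 and 21.5 ± 9.68, SD, n = 3 each, exact permutation p = 0.3), while Aldoc itself was at 72.4 to 109 FPKM. Pfkp was 10.8% ± 3.25 of the summed FPKM of the phosphofructokinase-1 subunits in Trim11+/- and 8.62% ± 1.69 in Trim11+/+ (SD, n = 3 each). Pfkl, at 41.0 to 66.3 FPKM, was the main subunit in tumors, where the cell lines had PFKP. By reads Pfkl was again the highest in each tumor, at 2940 to 4439, against 688 to 1630 for Pfkp and 443 to 735 for Pfkm. The Pfkp share itself depends on the length counted for each gene. In Trim11+/- tumor 1 Pfkp had 1630 reads and 10.9 FPKM, and Pfkm had 735 reads and 19.8 FPKM.

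Genes next to the pathway were followed as lists, and those named for the cell line comparisons were chosen after their values were seen. For KDM5C-KD against DKD the calls were 3 of 16 other glycolytic isozymes and enzymes (PFKFB2 higher, BPGM and PGM2 lower), 1 of 4 gluconeogenesis genes (FBP1 lower), 1 of 12 genes of pyruvate entry into mitochondria (MPC1 higher), 0 of 7 pentose phosphate genes, 0 of 10 glycogen and hexosamine genes, 1 of 18 hypoxia genes outside glycolysis (CA12 lower) and 1 of 8 regulators (EPAS1 higher), against 6.74% of all genes. For KDM5C-KD against TRIM11-KD the calls were PGM2, GFPT1, GFPT2 and LOX, all lower (5.37% of all genes were called). For DKD against TRIM11-KD they were VEGFA, ADM, LOX and EPAS1 lower and CA12 higher (3.29% of all genes). For the KDM5C guide they were VEGFA and ADM, both lower (2.13% of all genes), and for the TRIM11 guide PGM2 and GFPT2, both higher (3.02% of all genes). In the tumors they were 1 of 18 other isozymes (Slc16a8 higher) and 1 of 18 hypoxia genes (Car12 higher), with 0 called among the 6 gluconeogenesis, 12 pyruvate entry, 7 pentose phosphate, 10 glycogen and hexosamine genes and 9 regulators (3.61% of all genes were called). None of these passed the adjusted threshold.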

How the data were processed

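RNA-seq had been made from 7 MDA-MB-231 lines and 6 mouse tumors as poly(A), non-directional paired-end libraries. Per the study's methods the authors aligned reads with HISAT2 2.1.0 to hg19 or mm10 and named Cufflinks for FPKM. The submitters' processing notes also name Bowtie 0.12.2, with no role given. The deposited values are FPKM per gene and library, normalized for length and mapped fragments. Without strand, reads of overlapping genes cannot be told apart. For the tumors the length was taken as all annotated exons of a gene merged. By it 98.8% of 28794 genes with 1 annotated entry had FPKM at whole multiples of 1 read (tolerance 0.01), which gave read numbers. The depth of the cell lines is unknown.

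From these values each symbol's highest row was used, 27 date-damaged rows of the cell line table were dropped, and genes with a mean of at least 0.5 FPKM (12636 and 17328) were tested with limma 3.58.1 (eBayes with trend) in R 4.3.3 on log2(FPKM + 1), which understates changes of low genes. Adjusted p-values follow Benjamini-Hochberg over all genes tested. Groups came from the sample labels. The TRIM11-KD, KDM5C-KD and DKD lines were fitted together, guide effects in a fit over 7 lines, and tumors by genotype. The 2 lines of a group were used as replicates; p-values then measure only the spread between these samples, which may be technical. For tumors an exact permutation test of FPKM, two-sided, was added for single genes. A gene was called at 1.5-fold and an unadjusted p under 0.05. The fold was the ratio of mean FPKM between groups, and for the guide terms the back-transformed coefficient of log2(FPKM + 1), which is smaller for low genes. Against the single Control line a gene was called at 1.5-fold in both lines. All members were named; values in every library went to those called or, where fewer than 6, to those with the largest log2 differences, and to genes of other lists called in tumors or against Control with a mean of at least 1 FPKM, at most 8 per list. The members and lists were chosen with earlier results of these data known. Positions are from GENCODE v44lift37 and vM21, near copies were found with BLAST 2.17.0, and summaries used Python 3.11.15, numpy 2.4.6, pandas 2.3.3 and scipy 1.17.1. The scripts were tested on simulated data. Alternatives were the pseudocount, the filter, the scaling, limma settings, leaving out a library, a replicate block and, for tumors, a fit to recovered reads. Columns of the tables not tied to a sample numbered 0.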

Additional observations from a re-analysis of the deposited data

How the results depend on the processing

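The cell line comparisons rest on 2 lines a group and 1 Control line, the tumors on 3 against 3; the depth of the cell lines is unknown and Slc2a3, Slc16a3, Eno2 and Pfkfb4 in tumors rest on 13 to 80 reads a library. The number of members called kept to within 1.5 times of the main count except as follows, and the cause was not tested. For KDM5C-KD against TRIM11-KD 1 member (0 in the report) was called with no filter, SLC16A1, and 1, SLC2A3, without the lines TRIM11-KD1 and DKD1, an alternative chosen after seeing the data. For the TRIM11 guide 1 member, SLC2A3, was called without those lines. Against Control, KDM5C-KD gave 1 member with no filter and 1 by the mean of both lines, and DKD gave 0 at a fold of 2 and 2 by the mean of both lines. Over all genes, the tumor count of 625 became 970 with no filter, DKD against TRIM11-KD went from 416 to 703 with no filter and 164 without the lines TRIM11-KD1 and DKD1, the KDM5C guide from 269 to 457 at a pseudocount of 0.1, and the TRIM11 guide from 382 to 866 without those lines. Against Control the TRIM11-KD count of 737 became 278 at pseudocount 1, 2450 with no filter, 211 at a fold of 2 and 1499 by the mean of both lines; for KDM5C-KD 1162 became 653, 3009, 467 and 2108, and for DKD 1338 became 772, 3276, 547 and 2268.

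Leaving out 1 library at a time, the members called ranged from 0 to 2 in tumors (Aldoa, log2 1.27, adjusted p = 0.433, and Ldha, 0.66, without Trim11+/- tumor 3; Slc16a3 without Trim11+/- tumor 1), from 1 to 4 for KDM5C-KD against DKD, from 0 to 3 for KDM5C-KD against TRIM11-KD, from 0 to 2 for DKD against TRIM11-KD, at 0 for the KDM5C guide and from 0 to 3 for the TRIM11 guide. Over all genes the ranges were 584 to 810, 341 to 1604, 276 to 1533, 168 to 697, 188 to 500 and 201 to 714. With 1 line against Control members ranged from 0 to 2, from 0 to 2 and from 1 to 3 for TRIM11-KD, KDM5C-KD and DKD, and all genes from 1246 to 2295, from 1806 to 3102 and from 2297 to 2984. A lone line is assumed to vary like the other groups. Without Control the TRIM11 and KDM5C guide terms repeat the differences of DKD from KDM5C-KD and from TRIM11-KD. Isozyme share differences in tumors (percentage points) ranged from -0.9997 to -0.298 for Hk2, 0.63 to 3.86 for Pfkp, -14.6 to -6.03 for Aldoc, -0.45 to -0.08 for Eno2, -8.93 to -0.58 for Ldhb, -0.20 to 0.28 for Slc2a3 and -6.17 to -2.36 for Slc16a3. Slc2a3 changed sign to -0.12, -0.07 and -0.20 without Trim11+/+ tumor 2, Trim11+/+ tumor 3 and Trim11+/- tumor 3. Signs also turned for Pdk1 in tumors, which ranged from -0.56 to 0.0082 (without Trim11+/- tumor 3), for PFKP in KDM5C-KD against TRIM11-KD, from -0.80 to 0.0075 (without KDM5C-KD2), for SLC2A3 there, from -0.19 (without TRIM11-KD2) to 0.73, and for SLC2A3 in DKD against TRIM11-KD, from -0.79 to 0.13 (without TRIM11-KD1).

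For KDM5C-KD against DKD adjusted p over all alternatives ranged from 0.154 to 0.913 for HK2, 0.113 to 0.913 for PFKP and PFKFB3 and 0.240 to 0.913 for PDK1; PFKP, PFKFB3 and PDK1 also lost their call without the lines TRIM11-KD1 and DKD1, where HK2 (0.77) and SLC2A3 (0.89) were called. PFKP lost it as well without trend, with no filter and without either TRIM11-KD or DKD line, and PFKFB3 without DKD1. With the replicate number as a block the members called were 0 in tumors, 4 for KDM5C-KD against DKD (HK2, PFKP, PFKFB3 and PDK1, the genes called without it) and 0 in the other 2 comparisons, and all genes called 573, 1101, 921 and 576, so that no call on a member changed. Same-numbered samples did not deviate together in tumors (correlations of -0.33, 0.038 and -0.13), so the numbers are not taken to pair them. For same-numbered lines the correlation was 0.271 in KDM5C-KD against DKD and 0.084 in KDM5C-KD against TRIM11-KD. It was 0.371 in DKD against TRIM11-KD, whose same-numbered lines share a TRIM11 guide. The main fit did not pair these lines. Limma voom on recovered reads, chosen after seeing the data, called 0 members and 549 genes in tumors.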

Other observations

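Several genes beside the glycolytic route differed from the Control line in both lines of a knockdown. Over all genes tested the both-lines rule called 5.83% in TRIM11-KD, 9.2% in KDM5C-KD and 10.6% in DKD. All 6 knockdown lines were above Control for 13.6% of all genes and below it for 16.1%. HKDC1, a hexokinase-domain protein, was 3.26 FPKM in Control, 6.97 and 7.44 in the TRIM11-KD lines, 6.59 and 24.5 in the KDM5C-KD lines and 5.57 and 7.84 in the DKD lines, so that each of the 6 knockdown lines was at least 1.5-fold above Control. MPC1, a subunit of the mitochondrial pyruvate carrier, was 24.6 in Control, 17.9 and 14.0 in TRIM11-KD, 17.3 and 23.7 in KDM5C-KD and 14.1 and 12.7 in DKD, and the DKD lines were called lower. VEGFA, the angiogenic factor induced by low oxygen, was 81.3 in Control, 67.2 and 54.1 in TRIM11-KD, 55.7 and 44.9 in KDM5C-KD and 38.8 and 37.3 in DKD, lower than Control in all 6 lines and called in DKD. Over the 18 hypoxia genes outside glycolysis, 7 were above and 11 below Control in the mean of the DKD lines. Their median log2 ratio was -0.08, and 3 were called, VEGFA lower and CA12 and CA9 higher, against 10.6% of all genes. CA12, a membrane carbonic anhydrase, was 5.21 in Control and 8.31 and 10.1 in DKD, and CA9, another one, was 0.746 in Control, 1.27 in DKD1 and 5.10 in DKD2. Of the other isozymes with a mean of at least 1 FPKM, SLC2A10 was called higher and SLC16A7 and GALM lower in DKD, all at or below 10.5 FPKM. These comparisons rest on 1 Control library and carry no p-value.

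HIF1A mRNA was 90.03 in Control, 116 and 82.3 in TRIM11-KD, 120 and 98.2 in KDM5C-KD and 121 and 80.8 in DKD, and MYC mRNA ranged from 144 to 166.

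In the tumors Car12 was 23.7, 24.4 and 41.0 FPKM in Trim11+/+ and 45.7, 60.0 and 49.4 in Trim11+/-, a log2 difference of 0.81 (SE 0.23, limma, adjusted p = 0.634). Slc16a8, a lactate transporter of the retinal pigment epithelium, was 0.563, 1.25 and 0.700 against 1.82, 3.80 and 1.35, also without overlap.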
